A study of Mus musculus with 8 samples.

Results

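Type I interferon antiviral genes were followed in mouse peritoneal macrophages treated with LPS and with the small molecule C498. The set holds 39 genes chosen by symbol as known targets of type I interferon. All 39 were found in the table of 55801 genes, no symbol occurred there more than once, and all 39 were among the 12189 genes tested. They were grouped by role into 4 IFIT genes, 7 OAS genes, 5 RNA sensors and related receptors, 3 genes of the PARP group, 4 genes of the ISG15 system, 5 genes of a group of Mx proteins, viperin and nucleases, 2 membrane proteins and 9 other genes.

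Type I interferons are secreted by infected or stimulated cells and bind the receptor IFNAR, whose kinases JAK1 and TYK2 phosphorylate STAT factors. With IRF9 these form the factor ISGF3, which binds interferon-stimulated response elements (ISRE) in the promoters of antiviral genes. In macrophages, LPS from the outer membrane of Gram-negative bacteria engages TLR4, which drives NF-κB through one adaptor branch and IRF3 and interferon-β through another, so that antiviral genes are turned on together with cytokines.

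Peritoneal macrophages came from male C57BL/6 mice of 6 to 8 weeks of age, injected with thioglycollate 72 h before the cells were flushed out. In all 4 groups, cells received vehicle or 15 µM C498 for 0.5 h, followed by 4 h with or without 100 ng/ml LPS, giving vehicle alone (NC), LPS, C498 and C498+LPS, with 2 samples each. C498 was described by the study as an inhibitor of JAK/STAT and NF-κB signaling, so that the comparisons ask how far it limits the antiviral genes with and without LPS. Whether the 2 samples of a group came from separate animals, pools or cultures is not given in the sources used here, so p-values measure only the spread between these samples.

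Levels are given as TPM, which divide reads by gene length and scale each sample to the same total, so that read depth is unknown. Changes are log2 differences of TPM + 1 with their standard error from limma over all 8 samples, and adding 1 draws changes of low genes towards 0. A gene "passed" when its adjusted p (Benjamini-Hochberg) was 0.05 or less, and it was "called" when its fold change was also at least 2. Of the macrophage markers, Lyz2 lay between 7831 and 15989 TPM, Cd68 between 2208 and 2913 and Adgre1 between 323 and 723, so the cells carried the transcripts of their label. The 5 plasmacytoid dendritic cell markers summed to between 9.41 and 16.3 TPM per sample, of which Cox6a2 made up 9.07 to 15.6 TPM, while Ccr9 was at most 0.71 TPM, Pacsin1 at most 0.16, Siglech at most 0.07 and Klk1 at 0. The 2 NC samples differed along gene length, since replicate 1 exceeded replicate 2 by a median of 0.52 on the log2 scale over 3192 genes of at least 4000 bases and lay 0.12 below it over 1506 genes under 1000 bases. Among the 39 antiviral genes 29 were higher in NC replicate 1, by a median of 0.27 over the set, beside 0.20 over all tested genes. The LPS samples differed the same way by less, with 31 of the 39 higher in replicate 1, a median of 0.090 over the set and 0.19 over the long genes. So did the C498+LPS samples, with 26 of the 39 higher, a median of 0.11 over the set and 0.13 over the long genes. In C498, 14 of the 39 were higher in replicate 1, with medians of -0.052 and 0.039. The medians over all tested genes were 0.079 in LPS, 0.051 in C498+LPS and 0.0064 in C498.

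Promoters are shown first because the antiviral genes are known by the response element they share. In the RefSeq promoter table for GRCm38.p6, 28 of the 39 genes had an entry, and the 250 bases before each gene start were searched on both strands for the ISRE core GAAANNGAAA, in which N is any base. The core was present in 11 of these 28 genes (39.3%) and in 3.46% of the 27025 genes of the table. The shorter STAT dimer site TTCNNNGAA was present in 5 of the 28 (17.9%) and in 8.13% of all genes. The genes without an entry were Dhx58, Ifi27l2a, Mx1, Mx2, Oas1b, Oas2, Parp14, Parp9, Rtp4, Usp18 and Zbp1. The stretches below carry the core in part of the genes whose levels are described further on. They run in the direction of transcription. The bases of the core are in capitals, and in the reverse complement where it lies on the other strand.
Ifit1: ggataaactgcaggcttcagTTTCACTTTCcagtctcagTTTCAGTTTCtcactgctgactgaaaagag
Ifit3: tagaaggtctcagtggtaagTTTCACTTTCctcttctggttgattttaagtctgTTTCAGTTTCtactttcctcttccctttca
Ifit3b: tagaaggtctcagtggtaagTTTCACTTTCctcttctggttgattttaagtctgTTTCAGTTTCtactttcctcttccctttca
Isg15: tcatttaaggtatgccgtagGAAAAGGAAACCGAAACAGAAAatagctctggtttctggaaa
Rsad2: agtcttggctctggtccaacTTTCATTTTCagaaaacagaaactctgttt
Oas1a: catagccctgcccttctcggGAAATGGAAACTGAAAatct
Oas1g: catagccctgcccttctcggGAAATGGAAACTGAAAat
Oas3: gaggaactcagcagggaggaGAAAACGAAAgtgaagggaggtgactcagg

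These stretches lie at chr19:34640765-34640833 (plus strand) for Ifit1, chr19:34583353-34583436 (plus) for Ifit3, chr19:34607749-34607832 (plus) for Ifit3b, chr4:156200855-156200916 (minus) for Isg15, chr12:26456543-26456592 (minus) for Rsad2, chr5:120907526-120907565 (minus) for Oas1a, chr5:120887614-120887651 (minus) for Oas1g and chr5:120777705-120777754 (minus) for Oas3. Isg15 held 3 overlapping matches between 78 and 57 bases before its start, Oas1a and Oas1g held 2 overlapping matches each, and Ifit1, Ifit3 and Ifit3b held 2 separate matches each. Over the 84 bases shown, Ifit3 and Ifit3b had the same sequence. The other genes with a match were Bst2, Slfn5 and Trim30a. Of these, Bst2 held 2 overlapping matches, and its levels are also given further on. A match describes letters in this window and is not evidence of binding.

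LPS raised most of the antiviral genes in vehicle-treated cells. Of the 39, 34 rose and 27 of these were called, with a median log2 change of 1.38. Over all tested genes 9.84% passed upward and 5.55% were called upward, while 19.8% passed downward and 6.68% were called downward, and the median change was -0.17. In the limma test 0 of the 39 fell, also at an unadjusted p of at most 0.05. Levels did not overlap between the groups in 35 genes, all higher with LPS, against 19.3% of tested genes higher and 42.2% lower without overlap. The plot of levels by gene and sample shows the rise in both LPS samples.

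**Figure D1:**
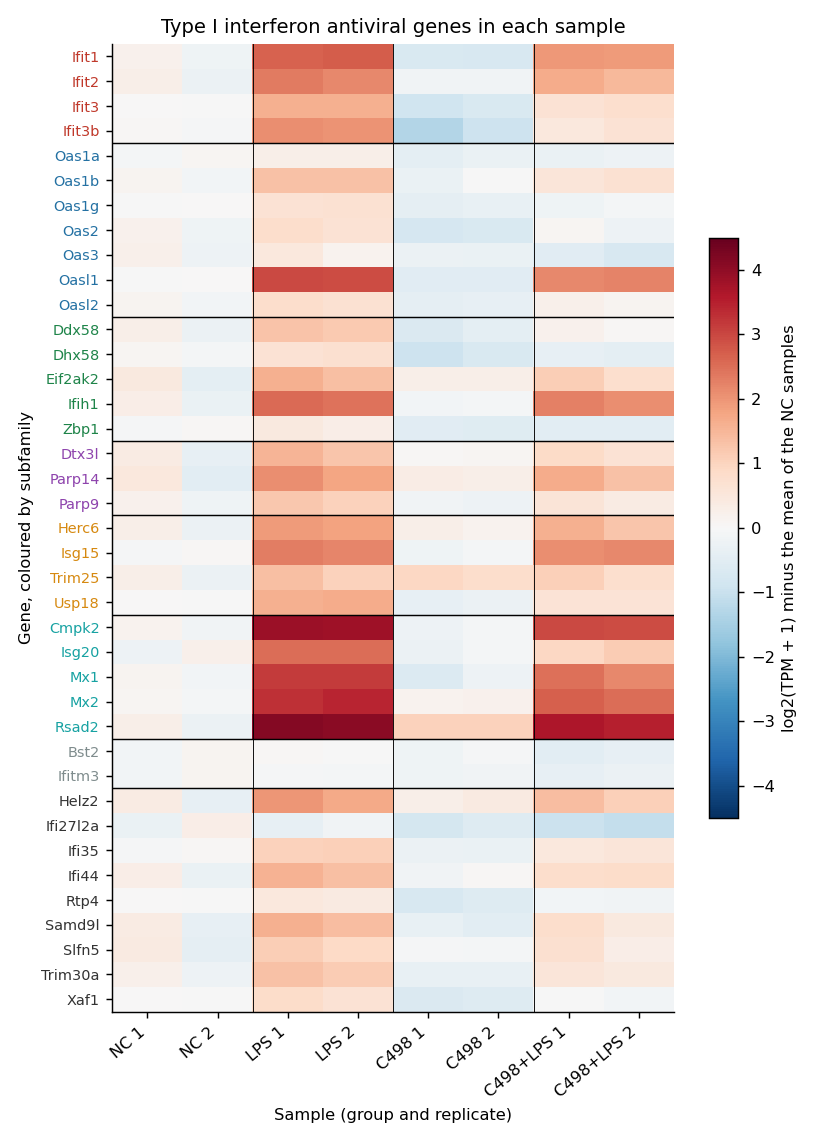
Levels of the 39 antiviral genes (rows, in subfamily blocks from the top: IFIT, OAS, RNA sensors, PARP, ISG15 system, Mx with viperin and nucleases, membrane, other) in the 8 samples (columns), as log2(TPM + 1) minus the mean of the 2 NC samples. Rsad2, Cmpk2, Mx1 and Mx2 are the darkest red in the LPS samples, and Bst2 and Ifitm3 are near white throughout. For most genes the red is paler in the C498+LPS columns than in the LPS columns. Genes such as Ifi27l2a, Oas3 and Zbp1 are on the blue side there.

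The Mx, viperin and nuclease group had the highest median log2 change of the gene groups, at 3.37, with all 5 genes called. Rsad2 encodes viperin, an enzyme that makes a chain-terminating nucleotide and blocks viral RNA synthesis. Its levels were 96.8 and 66.9 TPM in NC and 1432 and 1345 TPM in LPS, so the log2 change was 4.09 ± 0.16 (adjusted p 7.69e-06, limma), and both LPS samples lay far above both NC samples. Cmpk2, its neighbour on chromosome 12 and a nucleotide kinase, had 69.9 and 56.7 TPM in NC and 927 and 891 TPM in LPS, a change of 3.83 ± 0.12. Mx1, a dynamin-like GTPase that blocks influenza viruses and is known to be defective in C57BL/6 mice, rose from 35.8 and 30.6 to 304 and 304 TPM. Its relative Mx2, which the GENCODE annotation classes as a polymorphic pseudogene in the mouse, rose from 7.82 and 6.71 to 80.1 and 88.2 TPM. Isg20, an exonuclease of RNA, rose from 16.4 and 22.7 to 115 and 114 TPM, a log2 change of 2.51 ± 0.17. In each of these 5 genes the 2 LPS samples differed by less than the distance to either NC sample.

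The IFIT genes encode proteins that bind viral RNA lacking a host-type cap, and all 4 were called. Ifit1 rose from 121 and 92.7 TPM in NC to 667 and 703 TPM in LPS, which is 2.68 ± 0.12 on the log2 scale (adjusted p 1.82e-05, limma). Ifit2 rose from 139 and 96.3 to 587 and 526 TPM, and Ifit3 from 248 and 240 to 747 and 739 TPM. Ifit3b, a close copy of Ifit3, rose from 21.8 and 19.9 to 93.1 and 88.5 TPM, a fold of 4.35, where Ifit1 had 6.42, Ifit2 4.72 and Ifit3 3.04. No LPS sample overlapped an NC sample in any of the 4. Of the 150-base windows of the GENCODE M21 transcript of Ifit3, 18.5% occur unchanged in Ifit3b, so reads of the length sequenced could be split between the pair, and their separate levels are uncertain to that extent.

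The OAS genes encode synthetases of 2′-5′ oligoadenylate, which activates the nuclease RNase L, and they divided into strong and weak responders. Oasl1, an OAS-like protein without synthetase activity, rose from 82.9 and 86.2 TPM in NC to 663 and 648 TPM in LPS, which is 2.94 ± 0.08 on the log2 scale (adjusted p 1.56e-06, limma). Oas1b rose from 8.44 and 6.84 to 20.3 and 20.5 TPM and was also called, at a low level and for a gene classed by GENCODE as a polymorphic pseudogene. Oasl2 rose from 304 and 254 to 480 and 447 TPM, which passed the test at a log2 change of 0.74 ± 0.11 without reaching a fold change of 2. Oas1g (198 and 205 TPM against 314 and 322) and Oas2 (47.4 and 36.7 against 73.4 and 65.4) also passed under a fold change of 2, and Oas2 lost its pass in 4 alternatives, among them leaving out NC replicate 2 or either LPS sample, at adjusted p up to 0.108 in limma. Oas1a had 231 and 255 TPM in NC and 295 and 293 TPM in LPS, a change of 0.27 ± 0.09 that missed the threshold (adjusted p 0.0586, limma) although the samples did not overlap, and that passed without NC replicate 2 (adjusted p 0.0366) and with the replicate block. Oas3 overlapped between the groups, with 173 and 127 TPM in NC and 208 and 165 TPM in LPS. Oas1a and Oas1g shared 31.7% of the 150-base windows of Oas1a, so that these 2 levels can also borrow from each other.

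All 5 RNA sensors and related receptors rose with LPS. Ifih1, which encodes MDA5, the sensor of long double-stranded RNA, had the largest response, from 35.6 and 23.1 TPM in NC to 171 and 161 TPM in LPS (log2 change 2.49 ± 0.19). Ddx58, which encodes RIG-I, the sensor of 5′-triphosphate RNA, rose from 67.0 and 45.8 to 137 and 127 TPM, and Eif2ak2, which encodes the translation-blocking kinase PKR, from 28.4 and 14.6 to 64.3 and 53.7 TPM. Dhx58, which encodes LGP2, a helicase that modulates both sensors, rose less, from 104 and 93.5 to 157 and 165 TPM (0.70 ± 0.11). Zbp1, a sensor of Z-form nucleic acid that can trigger necroptosis, moved least, from 391 and 415 to 541 and 494 TPM (0.36 ± 0.08, adjusted p 0.0157, limma). The sensors thus spanned changes from 0.36 to 2.49, with no overlap between NC and LPS samples in any. The rise of Zbp1 did not pass in 4 alternatives, among them quantile normalization and leaving out LPS replicate 1 (adjusted p 0.102, limma), and that of Eif2ak2 in 2, among them leaving out LPS replicate 1 (adjusted p 0.069, limma).

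The 3 genes of the PARP group were called as well. Parp14, an ADP-ribosyltransferase, rose from 99.4 and 50.2 TPM to 304 and 243 TPM. Parp9 rose from 53.9 and 41.6 to 110 and 97.5 TPM, and Dtx3l, the ubiquitin ligase that works in complex with PARP9, from 36.4 and 21.6 to 82.0 and 67.5 TPM. Parp14 had the widest NC spread of the 3, and its log2 change was 1.93 ± 0.30.

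Isg15, a ubiquitin-like modifier joined to viral and host proteins, rose from 503 and 535 TPM to 2547 and 2369 TPM, the highest level of any member with LPS apart from Ifitm3 (log2 change 2.24 ± 0.08, adjusted p 6.64e-06, limma). Usp18, which removes ISG15 and also damps the receptor IFNAR2, rose from 121 and 119 to 362 and 387 TPM. Herc6, the mouse ligase for ISG15, rose by 1.87 ± 0.20 and Trim25, the ubiquitin ligase of RIG-I, by 1.18 ± 0.20 on the log2 scale. All 4 genes of the ISG15 system were called.

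The genes that LPS left without a passing change were few. Ifitm3, which stops viruses from leaving endosomes, was the most abundant member, at 3411 and 4098 TPM in NC and 3599 and 3533 TPM in LPS. Bst2, which encodes tetherin and holds budding virus at the membrane, had 1690 and 2036 TPM in NC and 1904 and 1820 TPM in LPS. Ifi27l2a had the lowest change, with 767 and 1145 TPM in NC and 730 and 843 TPM in LPS (-0.26 ± 0.19, adjusted p 0.345, limma). Its change was -0.55 without NC replicate 1. In Ifitm3, Bst2 and Ifi27l2a, the most abundant members of NC cells, the samples overlapped between the groups. Of the 9 other genes 8 rose, Helz2, Samd9l, Ifi44, Trim30a, Ifi35 and Slfn5 to a call and Xaf1 and Rtp4 without one, between 0.45 and 1.83 on the log2 scale. The rise of Slfn5 (1.02, adjusted p 0.0254, limma) was lost in 7 alternatives, among them leaving out NC replicate 2, either LPS sample or either C498 sample, at adjusted p up to 0.142. Without NC replicate 2 the rises of Trim25, Ddx58 and Parp9 were also under a fold change of 2.

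With C498 present, LPS still raised most of the antiviral genes. In C498+LPS against C498, 27 of the 39 rose and 15 were called, with a median log2 change of 0.78. Over all tested genes 4.51% passed upward and 2.52% were called upward, against 11.7% and 3.13% downward, and their median change was -0.18. In limma 0 members fell, and 1, Bst2, was lower at an unadjusted p of at most 0.05 and fell in 3 alternatives, with quantile normalization and without either NC sample. Without overlap, 33 members were higher and 4 (Bst2, Ifitm3, Ifi27l2a and Oas3) lower, beside 17.4% and 48.8% of tested genes. Leaving out 1 sample changed the passing count by more than 1.5 times in 4 cases, to 13 without C498 replicate 1, 15 without C498 replicate 2, 14 without C498+LPS replicate 1 and 16 without C498+LPS replicate 2.

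Cmpk2 had the largest response under C498, from 53.1 and 59.8 TPM in C498 to 495 and 489 TPM in C498+LPS (log2 change 3.10 ± 0.12, adjusted p 1.59e-05, limma). Mx1, Oasl1, Ifit1, Rsad2, Mx2, Ifih1 and Isg15 followed at changes between 2.26 and 2.74. Isg15 rose from 452 and 487 to 2211 and 2302 TPM, so that its fold was 4.81 with C498 and 4.74 with vehicle. Ifit1 kept nearly the same fold too, 6.28 with C498 and 6.42 with vehicle, at lower levels in both C498 groups. Isg20 showed the contrast to these, with a fold of 5.85 with vehicle and 2.41 with C498. Trim25 had 126 and 115 TPM in C498 and 141 and 113 TPM in C498+LPS, which overlapped. Ifi27l2a had the lowest change, from 547 and 634 to 475 and 447 TPM, which did not pass (adjusted p 0.241, limma).

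**Figure D2:**
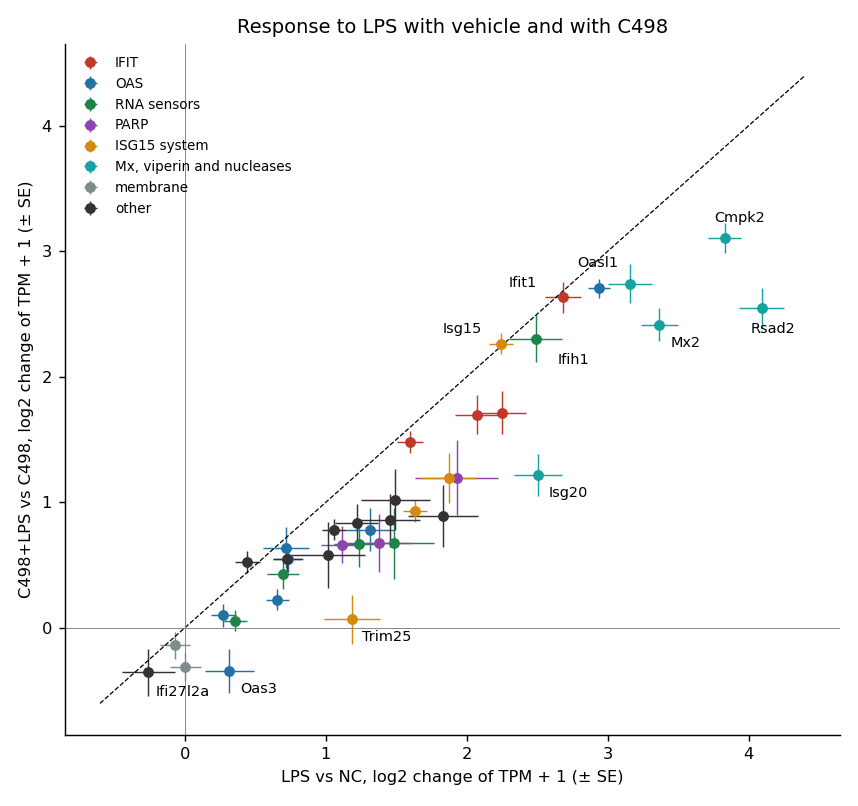
Log2 change of TPM + 1 with LPS in vehicle-treated cells (horizontal) and in C498-treated cells (vertical) for the 39 antiviral genes, with ± SE from the limma fit of 8 samples and the line of equal response dashed. Isg15 and Ifit1 lie on the line, Rsad2, Isg20, Mx2 and Trim25 lie well under it, and 37 of the 39 points are below it.

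The difference between the 2 responses was tested as the interaction of C498 and LPS. It was negative in 37 of the 39 genes, all but Isg15 and Rtp4, with a median of -0.43 beside -0.026 over all tested genes, but 1 gene passed and was called, Rsad2, at -1.54 ± 0.23 (adjusted p 0.0478, limma). Over all tested genes 0.418% passed and 0.394% were called downward, and 0.0738% passed and 0.0738% were called upward. At an unadjusted p of at most 0.05, 12 members were negative and 0 positive, beside 1351 of the 12189 tested genes in either direction. Rsad2 had 164 and 164 TPM in C498 and 1011 and 926 TPM in C498+LPS, a log2 response of 2.55 against 4.09 with vehicle, and its C498 samples lay above both NC samples. The call of Rsad2 was lost when any of the 6 samples other than those of NC was left out, at adjusted p between 0.147 and 0.281. Usp18 (-0.70 ± 0.12, adjusted p 0.0778, limma), Isg20 (-1.29 ± 0.24, adjusted p 0.0915) and Mx2 (-0.95 ± 0.18, adjusted p 0.103) came next and did not pass. Without NC replicate 2, Isg20 passed as well, at -1.51 (adjusted p 0.0458, limma). In this fit a smaller response under C498 was therefore not shown gene by gene for members other than Rsad2, and the replicate block, given with the alternatives, made 2 further calls. Rtp4, an interferon-induced chaperone, had the highest value at 0.08 ± 0.12.

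Directly between LPS-treated groups, the antiviral genes were lower with C498 throughout. In C498+LPS against LPS all 39 had a negative change, 27 passed and 5 were called, with a median of -0.70 on the log2 scale. Over all tested genes 7.7% passed downward and 2.18% were called downward, 9.08% passed and 5.39% were called upward, and the median change was 0.0065. In limma 0 members rose, also at an unadjusted p of at most 0.05. There 31 were lower, beside 3797 of the 12189 tested genes in either direction. Both C498+LPS samples lay under both LPS samples in 38 genes, beside 30.9% of tested genes, and Trim25 was the exception. The count of 27 fell to 11 without LPS replicate 1, 12 without LPS replicate 2 and 13 without C498+LPS replicate 2, while the sign stayed negative in all 39 under each alternative tried.

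The called genes were Ifit3b, Isg20, Ddx58, Dhx58 and Usp18. Ifit3b fell from 93.1 and 88.5 TPM in LPS to 29.7 and 33.2 TPM in C498+LPS, at a change of -1.50 ± 0.15 on the log2 scale (adjusted p 0.00149, limma), the largest of the set. Isg20 fell from 115 and 114 to 37.7 and 43.8 TPM (-1.47 ± 0.17), and Ddx58 from 137 and 127 to 62.8 and 57.6 TPM (-1.12 ± 0.18). Dhx58 fell from 157 and 165 to 76.7 and 73.0 TPM, which is under its NC levels of 104 and 93.5 TPM. Usp18 fell from 362 and 387 to 185 and 183 TPM (-1.02 ± 0.09, adjusted p 0.000843, limma). The call of Ddx58 did not hold without LPS replicate 1, LPS replicate 2 or C498+LPS replicate 2, and that of Usp18 (-0.97) without LPS replicate 2. With quantile normalization Ddx58 (-0.99), Dhx58 (-0.96) and Usp18 (-0.89) passed but were under a fold change of 2.

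All 4 IFIT genes fell. Ifit1 had 408 and 406 TPM in C498+LPS (-0.75 ± 0.12), Ifit2 368 and 319 TPM (-0.70 ± 0.17) and Ifit3 383 and 409 TPM (-0.91 ± 0.09). With LPS, Ifit3 was thus at 395.94 TPM on average under C498 and at 742.72 TPM without it. Every OAS gene fell too, by values from 0.53 in Oas1a to 0.94 in Oas3. Oasl1 had 386 and 399 TPM in C498+LPS, Oasl2 322 and 299 TPM and Oas2 44.5 and 35.2 TPM. Oas1a, at 198 and 208 TPM, Oas1g, at 175 and 190 TPM, and Oas3, at 104 and 89.4 TPM, were then below the levels of both NC samples. Oas1b, at 11.6 and 13.0 TPM, stayed above its NC samples.

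Of the RNA sensors, Zbp1 fell besides Ddx58 and Dhx58, to 288 and 289 TPM (-0.84 ± 0.08, adjusted p 0.00131, limma), under its NC level. Ifih1 had 143 and 127 TPM in C498+LPS (-0.30 ± 0.19) and Eif2ak2 45.7 and 35.4 TPM (-0.54 ± 0.28), and neither passed. In the PARP group Parp9 fell, to 71.3 and 61.6 TPM, while Parp14, at 226 and 178 TPM, and Dtx3l, at 51.6 and 44.4 TPM, did not pass. Isg15 had the smallest change of all members, with 2211 and 2302 TPM against 2547 and 2369 TPM (-0.12 ± 0.08, adjusted p 0.371, limma). Its protease Usp18 was therefore called where Isg15 itself, Herc6 (-0.46 ± 0.20) and Trim25 (-0.27 ± 0.20) did not pass.

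In the Mx, viperin and nuclease group, Cmpk2 fell to 495 and 489 TPM (-0.88 ± 0.12), Mx1 to 187 and 153 TPM (-0.84 ± 0.16) and Mx2 to 52.0 and 46.1 TPM (-0.77 ± 0.13). Rsad2, with 1011 and 926 TPM against 1432 and 1345 TPM, did not overlap but missed the threshold (-0.52 ± 0.16, adjusted p 0.0691, limma). It passed in 6 alternatives, among them centring, quantile normalization, the replicate block and leaving out either NC sample, with adjusted p down to 0.0081 in limma. Bst2 fell to 1321 and 1441 TPM (-0.43 ± 0.11), and Ifitm3, at 2878 and 3151 TPM, did not pass. Of the 9 other genes 6 fell, Samd9l, Xaf1, Ifi27l2a, Trim30a, Rtp4 and Ifi35, by values between 0.55 and 0.89, and Ifi44, Helz2 and Slfn5 did not pass. In alternatives Ifi44 passed in 5, Helz2 and Dtx3l in 3 each and Herc6 and Ifitm3 in 1 each. The fall of Bst2 was lost in 10 of the alternatives and that of Ifi27l2a in 9, both when any LPS, C498 or C498+LPS sample was left out and when centred on the median gene. Ifit2, Parp9 and Samd9l lost theirs in 8 alternatives each, Oas1b in 7 and Trim30a in 6, and the other falling members in 0 to 3.

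**Figure D3:**
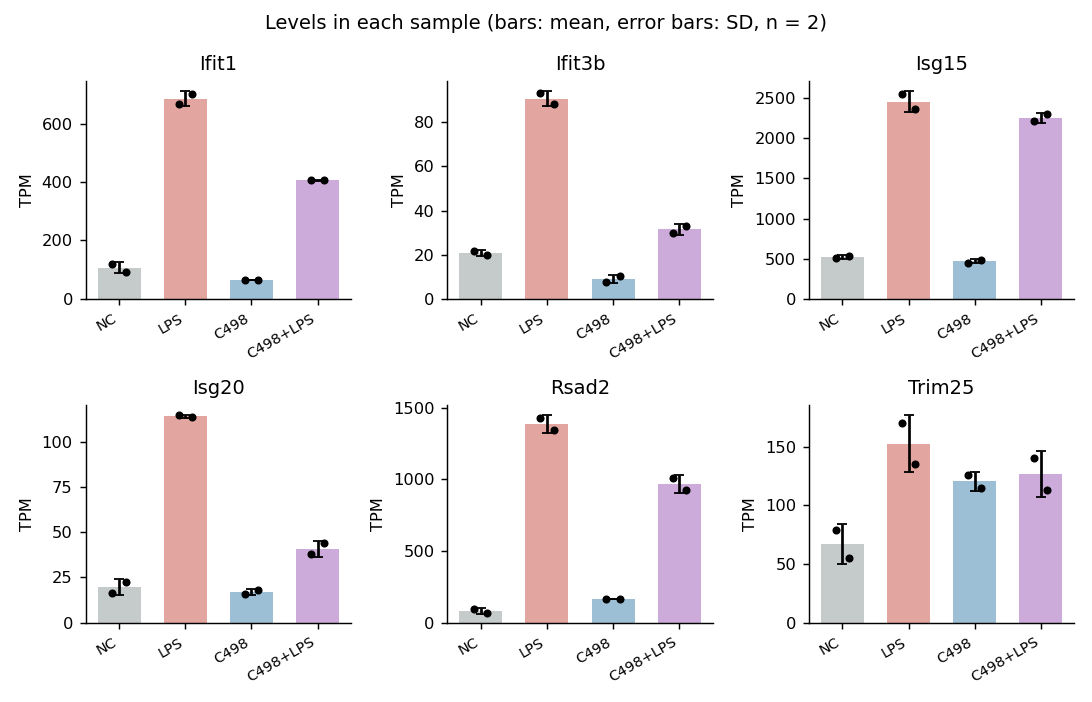
TPM of 6 antiviral genes in the 4 groups, with bars for the mean, error bars for the SD and points for the 2 samples of each group, on linear axes from 0. Isg15 is nearly as high in C498+LPS as in LPS, Ifit3b and Isg20 fall to 0.346 and 0.357 of their LPS mean, and Rsad2 and Trim25 are higher in C498 than in NC.

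Without LPS, C498 lowered part of the same genes and raised others. In C498 against NC, 31 of the 39 had a negative change and the median was -0.28, beside 0.014 over all tested genes. 13 members fell, of which Ifit3b was called, and 2 rose, Rsad2 and Trim25, of which Rsad2 was called. Over all tested genes 6.19% passed downward and 1.36% were called downward, and 9.29% passed and 5.64% were called upward. Without overlap, 21 members were lower and 3 (Rsad2, Trim25 and Mx2) higher, beside 28.4% and 29.3% of tested genes. The 13 falling members became 4 without C498 replicate 1, 4 without C498 replicate 2 and 8 without LPS replicate 1 or LPS replicate 2. The 2 rising members became 5 without NC replicate 1, 0 without either C498 sample and 1 without any other single sample. With only the NC and C498 samples in the fit, 3 fell and 0 rose.

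Ifit3b fell from 21.8 and 19.9 TPM to 7.73 and 10.4 TPM (-1.13 ± 0.15, adjusted p 0.00472, limma). Ifit3 fell from 248 and 240 to 132 and 151 TPM (-0.79 ± 0.09) and Ifit1 from 121 and 92.7 to 65.4 and 64.3 TPM (-0.70 ± 0.12). Ifit2, at 103 and 104 TPM against 139 and 96.3 TPM, overlapped. Dhx58 fell from 104 and 93.5 to 50.8 and 60.4 TPM and Zbp1 from 391 and 415 to 281 and 273 TPM, whereas Ddx58 (35.0 and 40.2 TPM), Ifih1 (26.0 and 27.0 TPM) and Eif2ak2 (24.9 and 24.7 TPM) did not pass. Of the OAS genes Oas2, Oasl1, Oasl2, Oas1g and Oas1a fell, by values between 0.36 and 0.72. In C498 cells Oas2 was at 24.5 and 25.6 TPM, Oasl1 at 59.5 and 59.2 TPM, Oasl2 at 208 and 214 TPM, Oas1g at 154 and 158 TPM and Oas1a at 181 and 199 TPM, each under both NC samples. Oas1b (5.94 and 7.56 TPM) overlapped with NC, and Oas3 (125 and 120 TPM) lay just under it without passing. Rtp4, Xaf1 and Usp18 fell as well, Usp18 from 121 and 119 to 91.5 and 100 TPM. The fall of Usp18 was lost in 13 of the alternatives, among them leaving out any 1 of the 8 samples, those of Oas1a and Oasl2 in 11 each, that of Oas1g in 8 and that of Oas2 in 7, while the other falling members lost theirs in 0 to 3. The 3 genes of the PARP group, Parp9 (42.7 and 40.3 TPM), Parp14 (89.7 and 84.1 TPM) and Dtx3l (28.9 and 30.2 TPM), did not pass in limma, also at an unadjusted p of at most 0.05. Mx1 (21.5 and 27.8 TPM) and Ifi27l2a (547 and 634 TPM, adjusted p 0.0519, limma) lay under both NC samples without passing. Centred on the median gene, Ddx58, Mx1 and Trim30a passed downward. Quantile normalization gave this for Ddx58 and Ifi27l2a. Ifi27l2a also passed with a pseudocount of 0.1 TPM, a mean TPM of at least 5 and the replicate block. Without NC replicate 1 the changes of Eif2ak2, Helz2 and Parp14 were 0.73, 0.72 and 0.78.

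Rsad2 went the other way, from 96.8 and 66.9 TPM in NC to 164 and 164 TPM in C498 (1.02 ± 0.16, adjusted p 0.00815, limma). Trim25 rose from 79.4 and 55.4 to 126 and 115 TPM (0.85 ± 0.20, adjusted p 0.0304, limma). Neither of these 2 rises passed without C498 replicate 1 or C498 replicate 2, and that of Trim25 was lost in 10 of the alternatives. Cmpk2, the neighbour of Rsad2, had 53.1 and 59.8 TPM in C498 against 69.9 and 56.7 TPM in NC, which overlapped.

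The effect of C498 without and with LPS can be set side by side, since these comparisons share no samples, although both tests use the spread estimated over all 8. Of the 39 genes, 13 passed downward in both, 14 passed downward with LPS and did not pass without it, 2 rose without LPS and did not pass with it, and 10 passed in neither. None of these 14 had an interaction that passed in the fit of all 8 samples without a replicate block, so a difference between their 2 changes was not shown. Over all tested genes 396 (3.25%) passed downward in both, which is 52.5% of those that fell without LPS and 42.2% of those that fell with it. Near-equal values in both settings were found in Ifit1 (-0.70 and -0.75), Ifit3 (-0.79 and -0.91), Oas2 (-0.72 and -0.79) and Rtp4 (-0.66 and -0.58). Isg20 (-0.18 and -1.47), Cmpk2 (-0.16 and -0.88) and Mx2 (0.18 and -0.77) had values far apart, though none of these 3 interactions passed in that fit.

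**Figure D4:**
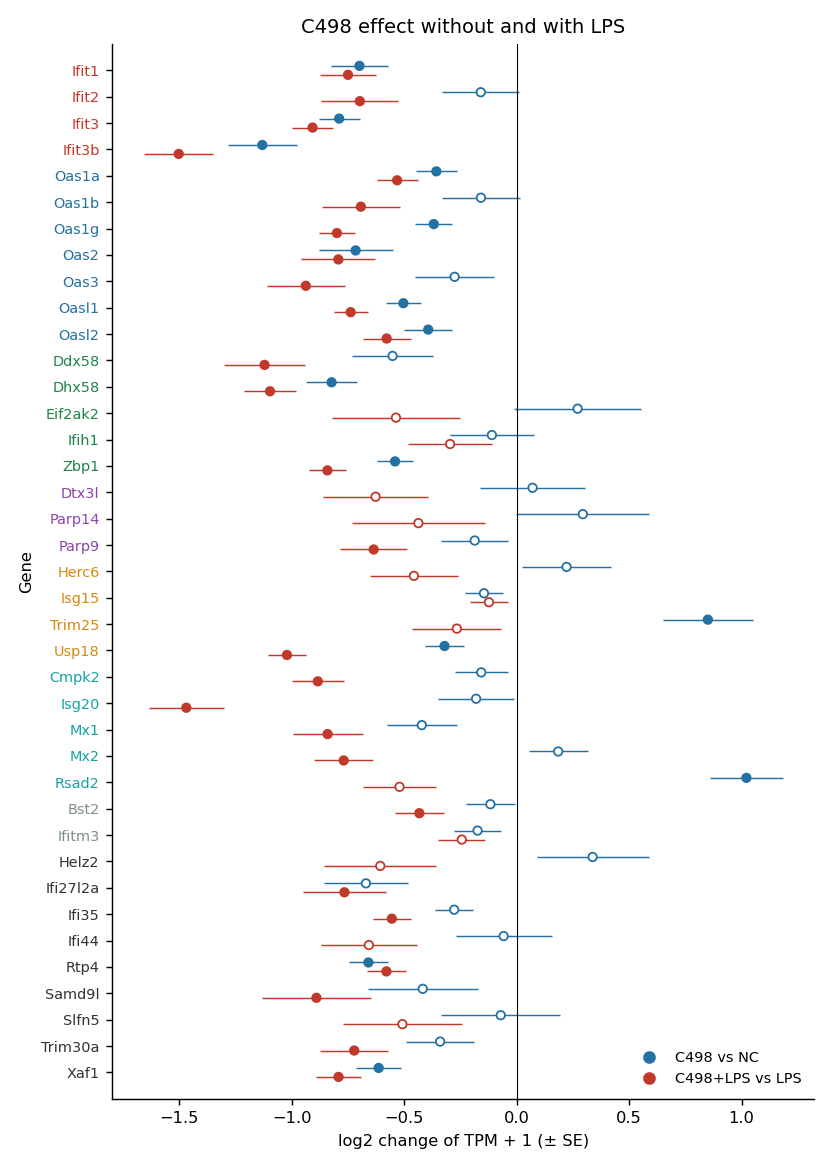
Log2 change of TPM + 1 with C498, in cells without LPS (blue) and with LPS (red), for the 39 antiviral genes in subfamily order, with ± SE from limma and filled points where the adjusted p is at most 0.05. All red points are left of 0, and Rsad2 and Trim25 are the filled blue points to the right of 0.

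Other transcripts moved with C498 in the same samples. The summed level of 5 fibroblast markers (Col1a1, Col1a2, Col3a1, Dcn, Pdgfra) was 150 to 192 TPM in NC, 176 to 200 in LPS, 633 to 750 in C498 and 618 to 911 in C498+LPS. Of these markers, 5 of 5 were called upward in C498 vs NC and 4 of 5 in C498+LPS vs LPS. Over all tested genes 5.64% and 5.39% were called upward. The summed level of 8 macrophage markers, most of it Lyz2, was 20099 to 20590 TPM in NC, 17938 to 18472 in LPS, 15939 to 16075 in C498 and 12420 to 14208 in C498+LPS. The 5 mesothelial markers summed to 4.66 to 5.58 TPM in NC, 5 to 5.36 in LPS, 14.8 to 20.9 in C498 and 15.5 to 24.5 in C498+LPS, and the 6 neutrophil markers to 207 to 225, 184 to 205, 116 to 126 and 115 to 139 TPM in the same order. Between C498+LPS and LPS 4 of the 8 macrophage markers fell, Adgre1, Csf1r, Fcgr1 and Lyz2, by 0.64 to 0.92, and Cd14 rose. Over all tested genes 7.7% fell and 9.08% rose in that comparison. In bulk RNA fewer cells of a type cannot be told apart from less RNA per cell, and the part of these shifts in the levels of the antiviral genes was not tested.

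Genes of the type I interferon pathway outside the set were also read, from a list of 30, of which 29 were in the table and 24 were tested. Of the 5 ligand genes, Ifnb1 was at 0 and 0 TPM in NC, 0.27 and 1.60 in LPS, 0 and 0.13 in C498 and 1.10 and 0.65 in C498+LPS, and Ifna2, Ifna4, Ifnab and Ifnz were at most 0.23 TPM in any sample, too low to be tested. With LPS 7 of the 24 pathway genes rose and 2 fell, beside 9.84% and 19.8% of all tested genes. In C498+LPS vs LPS, 9 fell (Tlr4, Ikbke, Irf5, Irf7, Ifnar2, Tyk2, Irf9, Irf2 and Ptpn6) and 1 rose, beside 7.7% and 9.08% of all tested genes. Tlr4, the receptor for LPS, had 14.1 and 12.6 TPM in LPS and 7.10 and 4.53 TPM in C498+LPS, a change of -1.10 ± 0.30 (adjusted p 0.0446, limma), and its samples did not overlap. Ikbke, a kinase that activates IRF3, fell from 116 ± 1.98 to 58.0 ± 9.91 TPM (mean ± SD, n = 2), and Tlr4, Ikbke and Ptpn6 were called. Tyk2, a kinase of the receptor, had 30.5 and 27.7 TPM in LPS and 18.3 and 14.0 TPM in C498+LPS, a fall of 0.82 ± 0.16 on the log2 scale with no overlap. Irf9, the DNA-binding part of ISGF3, fell by 0.52 ± 0.10 and Irf7, which amplifies interferon production, by 0.49 ± 0.12, while Stat2 (-0.52 ± 0.15, adjusted p 0.0567, limma) did not pass. The phosphatase Ptpn6 fell by 1.28 ± 0.08, and Irf8, a myeloid factor, rose by 1.43 ± 0.13. In C498 vs NC, 4 pathway genes fell and 3 rose, Irf1 (1.21 ± 0.11) and the JAK inhibitors Socs1 (1.05 ± 0.19) and Socs3 (1.34 ± 0.11), beside 6.19% and 9.29% of all tested genes, so that the share rising was near that of all genes.

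**Figure D5:**
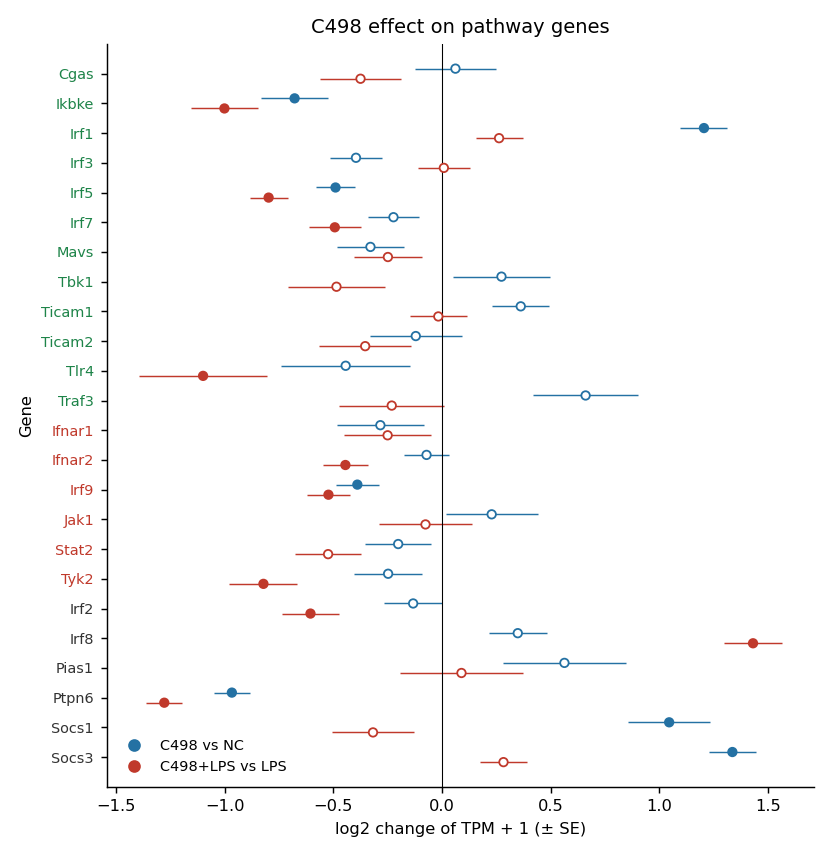
Log2 change of TPM + 1 with C498, without LPS (blue) and with LPS (red), for the 24 tested pathway genes in the order induction (green names), receptor and signal (red names) and brakes (black names), with ± SE and filled points where the adjusted p is at most 0.05. Irf1, Socs1 and Socs3 are filled and to the right in blue, and Tyk2, Irf9 and Irf7 are filled and to the left in red.

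For comparison, 11 cytokine genes of NF-κB and 15 GTPases were read in the same way. Of the 11 NF-κB cytokine genes (Tnf, Il6, Il1a, Il1b, Cxcl1, Cxcl2, Cxcl3, Ccl3, Ccl4, Il12b, Csf3) 10 rose with C498 alone, with a median log2 change of 1.85, where the antiviral genes had a median of -0.28. Of 15 guanylate-binding and immunity-related GTPases 8 rose with C498 alone, at a median of 0.62. Over all tested genes 9.29% passed upward with C498 alone. In C498+LPS vs LPS the medians were -0.12 for the cytokines, -0.43 for the GTPases and -0.70 for the antiviral genes. Of the cytokines 2 rose and 3 fell there, with changes from -1.42 (Cxcl3) to 0.98 (Cxcl1). Of the GTPases 4 fell, with 11 lower and 4 higher. All tested genes passed upward in 9.08% and downward in 7.7%. Of the interaction tests 9 of 11 passed downward among the cytokines, 2 of 15 among the GTPases and 1 of 39 among the antiviral genes. Among all tested genes 0.418% did. Differences between these lists were not tested.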

How the data were processed

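Total RNA was extracted from 8 samples, and libraries of fragmented mRNA were read in pairs on an Illumina NovaSeq. The authors' processing notes name fastp, HISAT2, StringTie and RSEM for filtering, alignment, assembly and quantification, and TPM values for each gene and sample were deposited. Versions, genome build and annotation are not given in the sources used here. The table also held the authors' group means and functional annotation, which were not used. Positions follow GENCODE M21 and RefSeq on GRCm38 and are not the authors' coordinates.

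Members were found by gene symbol. Genes averaging 1 TPM or more over all samples, 12189 in number, were tested on log2(TPM + 1) with limma 3.58.1 (R 4.3.3) with 1 mean per group over 8 samples and a variance trend, with Benjamini-Hochberg adjustment within each comparison. No test on counts was possible with TPM values. Compared were LPS with NC, C498 with NC, C498+LPS with either single treatment, and the interaction. Calls needed a 2-fold change besides an adjusted p of 0.05 or less. An exact two-sided permutation test of 2 samples against 2 cannot go below p = 0.333. The fit was tested on simulated data.

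Values in every sample are given for the IFIT, OAS, RNA sensor and PARP genes, Isg15, Usp18, Rsad2, Cmpk2 and Mx1, and the members with the largest and smallest change per comparison, and some others were added after their values were seen. The members, lists and tests were chosen with earlier results of these data known. Alternatives were a pseudocount of 0.1 TPM, no filter, a mean TPM of at least 5, centring on the median gene, quantile normalization, a fit of the compared groups alone, a variance without trend, a block for the replicate number, no fold change threshold and leaving out each sample. Python 3.11.15, pandas 2.3.3 and matplotlib 3.10.9 were used for tables and figures. A gene of the pathway list is not reported here.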

Additional observations from a re-analysis of the deposited data

Results flagged for a closer look

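The response of Rsad2 to LPS differed between C498-treated and vehicle-treated cells, by -1.54 on the log2 scale (adjusted p 0.0478, limma interaction over 2 samples per group). Its log2 response was 4.09 with vehicle and 2.55 with C498. The direction was the same under all 15 alternatives that refit it, with values from -1.80 to -1.28, and the adjusted p lay between 0.00895 and 0.281.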

How the results depend on the processing

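For the interaction, the downward count of 1 became 0 without the filter on low values and 0 without the variance trend, and 3 with the replicate number as a block, Rsad2, Isg20 (adjusted p 0.0379, limma) and Trim25 (adjusted p 0.0288). The labels do not say that equal numbers mark shared animals or days. Deviations of samples with equal numbers correlated at 0.040 to 0.168 over the 6 pairs of groups, so the block is given only as an alternative. It moved no other count of calls by over 1.5 times. Centring on the median gene moved the median of LPS vs NC to 1.54 and that of C498+LPS vs C498 to 1.00, and the upward count of C498 vs NC to 0. With only the groups compared in the fit, C498 vs NC had 0 upward and 0 downward calls. With quantile normalization the downward count in C498+LPS vs LPS was 2. Without the fold change threshold the counts were 27 upward in C498+LPS vs C498, 27 downward in C498+LPS vs LPS, and 2 upward and 13 downward in C498 vs NC. The causes were not tested.

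Leaving out 1 sample at a time gave, for LPS vs NC, medians from 1.10 (without NC replicate 2) to 1.62 (without NC replicate 1) and 23 to 27 calls. It gave for C498+LPS vs C498 medians from 0.76 to 0.84 and 11 to 15 calls, for C498+LPS vs LPS medians from -0.75 to -0.63 and 4 to 6 calls, for C498 vs NC medians from -0.37 to -0.24 with 0 to 2 upward and 0 to 1 downward calls, and for the interaction medians from -0.60 to -0.30 and 0 to 2 calls. Without NC replicate 1 the upward count of C498 vs NC rose to 2, and it was 0 without NC replicate 2, C498 replicate 1 or C498 replicate 2, the downward count was 0 without C498 replicate 1, and the interaction count was 2 without NC replicate 2 and 0 without any sample of LPS, C498 or C498+LPS.

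Of 3081 single-gene values under alternatives, 38 changed sign, all of them short of the threshold in the reported test. In C498 vs NC, leaving out 1 sample gave ranges of -0.25 to 0.018 for Bst2, -0.29 to 0.44 for Dtx3l (-0.051 when centred), -0.19 to 0.73 for Eif2ak2, -0.045 to 0.72 for Helz2, -0.058 to 0.50 for Herc6, -0.36 to 0.24 for Ifi44, -0.41 to 0.19 for Ifih1, -0.42 to 0.11 for Ifit2, -0.40 to 0.045 for Isg20, -0.19 to 0.78 for Parp14 and -0.49 to 0.35 for Slfn5. In LPS vs NC the ranges were -0.13 to 0.14 for Bst2 (-0.00091 by quantiles), -0.55 to 0.033 for Ifi27l2a and -0.20 to 0.064 for Ifitm3 (0.10 centred and 0.0032 by quantiles). In C498+LPS vs C498, Ifitm3 was at 0.076 when centred and Trim25 ranged from -0.087 to 0.22. In the interaction the ranges were -0.38 to 0.19 for Ifi27l2a, -0.49 to 0.12 for Ifih1 (0.013 by quantiles), -0.24 to 0.14 for Ifit1, -0.20 to 0.062 for Ifitm3, -0.031 to 0.075 for Isg15 (-0.089 by quantiles) and -0.26 to 0.10 for Oas2 (0.095 by quantiles). The members that passed under each alternative numbered 28 upward in LPS vs NC, 13 upward in C498+LPS vs C498, 10 downward in C498+LPS vs LPS and 2 downward in C498 vs NC (Ifit3 and Rtp4). TPM values keep no depth, so counting error could not be separated from the spread between 2 samples.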
